A study of Mus musculus with 28 samples.

Results

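Wild-type proximal stomach was set against wild-type distal stomach in mouse fetuses at embryonic day 18 (E18). The comparison holds 4 of the 28 arrays of the series, 2 labelled WT proximal stomach and 2 labelled WT distal stomach, chosen by their titles, and takes in all probe sets of the array. The mice were Balb/c, and the genotype of these 4 samples is wild type, with no transgene or treatment named. Total RNA was hybridised to Affymetrix mouse 430 2.0 arrays. Where other tissues are set beside the stomach, they are p63 KO proximal and distal stomach, WT bladder, WT small intestine and WT large intestine, all Balb/c at E18 with 2 arrays each. The labels give neither the line of dissection, nor the p63 allele, nor whether the 2 replicates came from separate animals. The p-values thus speak only of the spread among these samples. In each WT and p63 KO stomach group, replicate 1 was high and replicate 2 low for the Y-linked gene Eif2s3y. Those 2 arrays were therefore not repeats of the same RNA sample. In the bladder and intestine groups, which enter the same fit, the spread may be technical. A description field of the labels speaks of stem cells, while the tissue fields name organs. Smooth muscle genes averaged 12.37 and 12.02 in WT proximal stomach, against 11.75 and 11.85 in WT distal stomach.

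The mouse stomach has 2 linings. The proximal part, or forestomach, carries a stratified squamous epithelium that resembles that of the esophagus and skin: basal cells divide, suprabasal cells fill with keratin, and the outermost cells build a cornified envelope of crosslinked proteins sealed with lipids. The distal part carries a simple columnar epithelium folded into glands of mucous, acid-secreting, pepsinogen-secreting and hormone-secreting cells. The transcription factor p63, encoded by Trp63, is a master regulator of stratified epithelia. In whole tissue, fewer cells of a type and less RNA per cell cannot be told apart.

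Values below are log2 levels as deposited, 1 per array, and a difference is proximal minus distal on that scale, so that 1 unit is a doubling. Each SE and adjusted p comes from a limma fit, with Benjamini-Hochberg adjustment over 13613 genes, and a call means an adjusted p under 0.05. A gene could pass the filter on low values through the region or genotype where it is high, so counts over a list describe the members that passed and not all listed ones. Each count is to be set beside the shares over all genes tested, 18.2% called higher and 22.3% called lower in WT proximal stomach. Where a list is given as having 0 calls in a direction, limma's unadjusted p under 0.05 also gave 0 there. Levels of different probe sets were not compared with each other, since each probe set has a brightness of its own.

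The 2 replicates of each region had a correlation of 0.982 across genes (genes are not independent replicates), and the 4 medians lay between 7.75 and 7.81. The difference between the 3' and 5' actin probe sets, a sign of RNA integrity, was 0.97 and 0.88 in WT proximal stomach, against 0.63 and 0.77 in WT distal stomach. It moved with region, and with it as a covariate 4154 of the 13613 genes were called, against 5504 without it. Replicate 1 of both regions was high for the Y-linked gene Eif2s3y (12.03 in proximal, 12.01 in distal stomach) and low for Xist, and replicate 2 of both regions was high for Xist (13.47 in proximal, 13.66 in distal stomach) and low for Eif2s3y. Each region thus held 1 array of either pattern. Of the genes called, 5500 of 5504 had the same direction of difference in both same-numbered pairs, against 10670 of all 13613 genes. The calls rest on the same 4 arrays, so this agreement largely follows from the choice of genes and is no separate support.

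The proximal stomach was marked by genes of the cornified squamous layer and the distal stomach by genes of gastric mucus, pepsinogen and acid. Of 13613 genes, 5504 were called, 2474 higher (18.2% of those tested) and 3030 lower (22.3%) in proximal stomach. Of these, 1210 were at least 2-fold higher and 1139 at least 2-fold lower. The median difference over all genes was -0.05. The 2 arrays of one region did not overlap those of the other for 8728 genes (64.1% of those tested).

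Among genes with full names, the 15 largest increases were Hrnr, Lce3a, Lce3f, Cdsn, Sprr3, Lor, Flg, Rptn, Lce1a1, Krt4, Fads2b, Alox12b, Krt13, Serpinb3a and Kprp, with differences from 8.65 to 9.75. Most encode parts of the cornified envelope, keratins of stratified epithelia or enzymes of barrier lipid. The 15 largest decreases were Gkn1, Gkn2, Dmbt1, Cblif, Agr2, Ctse, Pgc, Lypd8, Cfi, Gsdmc2, Ttr, Anxa10, Olfm4, Cldn18 and Tmed6, with differences from -9.96 to -6.87. Several of these encode secreted products of gastric glands. In either set the 2 regions lay far apart: the proximal means of the increases ran from 12.50 to 15.10, against distal means of 3.81 to 6.03, and the proximal means of the decreases ran from 4.46 to 7.03, against distal means of 12.49 to 14.71. The array file gives no detection calls. Some of the lower values, such as those of Hrnr, Flg and Cdsn in distal stomach, lay below the 5th percentile of their array (4.16 to 4.27) and are not told apart from background, while others, such as Ttr, Anxa10 and Agr2 in proximal replicate 2, lay closer to the median of the array. Lor was at the highest value of proximal replicate 1. A difference with one side at either end of the scale is best read as a bound, so no order is read among the genes of either set. All 21 probe sets of the increases and all 23 of the decreases that were kept were called in the direction of their set when each was fitted on its own. Only 5 of the 15 increases and 6 of the 15 decreases had several such probe sets. The counts include, for every gene, the probe set by which it was chosen, which is no separate support. Lce1a1, Serpinb3a and Ttr were read by probe sets of a type that can take up related transcripts (_x_at), and Lor by one shared between transcripts (_s_at).

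**Figure D1:**
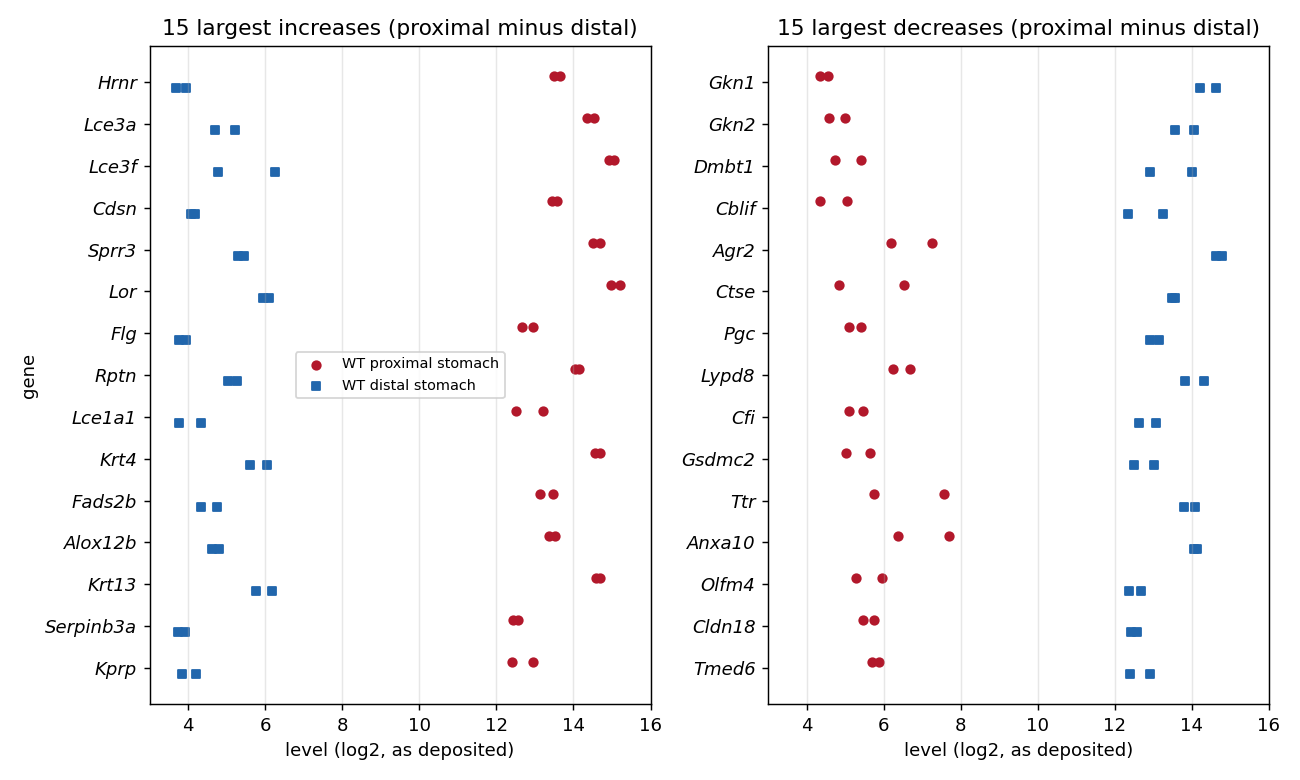
Levels of the 15 genes with the largest increase (left) and the 15 with the largest decrease (right) between WT proximal and WT distal stomach, on a log2 axis with 1 point per array (2 red circles for proximal, 2 blue squares for distal). The proximal and distal points of each gene stand at opposite ends of the axis, and the 2 proximal arrays spread most for Ttr (5.76 and 7.57) and Ctse (4.84 and 6.52).

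Genes of the cornified envelope were higher in proximal stomach. The list held 52 genes, of which 40 had a probe set and 39 passed the filter on low values, and these 39 were called higher by 2.19 (Ivl, involucrin) to 9.75 (Hrnr), with a median of 7.29 against -0.05 over all genes. Hornerin (Hrnr), an S100-fused protein of the granular layer, stood at 13.64 and 13.49 in WT proximal stomach, against 3.94 and 3.69 in WT distal stomach (9.75, SE 0.56, adjusted p = 6.37e-12). Both proximal arrays were high and both distal arrays were at the low end of the scale. The late cornified envelope gene Lce3a read 14.36 and 14.53 in proximal, against 5.22 and 4.68 in distal stomach (9.49, SE 0.22, adjusted p = 9.41e-18). Lce3f read 14.93 and 15.05 in proximal, against 6.26 and 4.77 in distal stomach (9.47, SE 0.57, adjusted p = 1.49e-11). The distal arrays differed from each other by more than the proximal ones for Lce3f, without nearing them. Lor encodes loricrin, a main protein of the envelope, and read 15.22 and 14.97 in proximal, against 6.11 and 5.95 in distal stomach (9.07, SE 0.52, adjusted p = 6.06e-12). Filaggrin (Flg), which bundles keratin filaments, read 12.96 and 12.66 in proximal, against 3.94 and 3.77 in distal stomach (8.95, SE 0.20, adjusted p = 7.14e-18). Sprr3, a small proline-rich crosslinker of internal stratified epithelia, read 14.50 and 14.70 in proximal, against 5.29 and 5.46 in distal stomach (9.23, SE 0.41, adjusted p = 8.47e-14). Proximal arrays were the high ones for each of these, with no overlap. All but 1 of the late cornified envelope genes measured differed by over 5, from 5.59 (Lce1h) to 9.49 (Lce3a); the exception was Lce1m (4.17), and both Lce1h and Lce1m are named here after their values were seen.

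Stretches of 150 bases just before the start that RefSeq annotates for Hrnr, Flg and Lor are shown because these 3 genes of chromosome 3 were among the largest increases. Sequences come from RefSeq, build GRCm38.p6, and run 5′ to 3′ along the gene's strand in lower case. Capitals mark motif matches, searched on both strands. The TATA box was searched as TATAAA. The core of sites for the AP-1 factors was searched as TGANTCA. Sites for GATA factors were searched as AGATAA. Sites for forkhead factors were searched as TGTTTAC.
Hrnr, chr3:93319599-93319748, plus strand: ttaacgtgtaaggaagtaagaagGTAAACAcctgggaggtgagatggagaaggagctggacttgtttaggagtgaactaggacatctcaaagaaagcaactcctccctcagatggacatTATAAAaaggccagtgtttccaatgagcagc
Flg, chr3:93273396-93273545, plus strand: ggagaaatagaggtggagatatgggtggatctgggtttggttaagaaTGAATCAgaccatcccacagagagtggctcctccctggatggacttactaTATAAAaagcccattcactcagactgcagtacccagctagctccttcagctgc
Lor, chr3:92083143-92083292, minus strand: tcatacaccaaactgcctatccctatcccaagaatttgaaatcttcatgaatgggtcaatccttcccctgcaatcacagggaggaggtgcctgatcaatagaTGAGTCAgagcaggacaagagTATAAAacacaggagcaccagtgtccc
A TATAAA lies 31 bases before the start of Hrnr, 53 before that of Flg and 27 before that of Lor. TGANTCA lies 103 bases before the start of Flg and 48 before that of Lor, and Hrnr has a TGTTTAC match 127 bases before its start. Such matches are letters in a window and were not measured as bound sites. Over 10924 tested genes with a window of 250 bases before the start, 7.24% held TATAAA, 4.51% TGANTCA, 6.02% AGATAA and 2.23% TGTTTAC. Among the 420 with a window of the 560 genes called and at least 4-fold higher in proximal stomach (4.11% of genes tested), 13.6% held TATAAA and 14.5% TGANTCA. Among the 352 with a window of the 464 called and at least 4-fold lower (3.41%), these shares were 15.3% and 6.25%, and AGATAA stood in 9.66%, against 8.33% of the 4-fold higher set.

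Keratins of suprabasal and of basal cells were higher in proximal stomach. All 11 suprabasal and stress keratins tested, of 12 listed, were called higher in proximal stomach, with a median difference of 5.54. Krt4, a keratin of internal stratified epithelia such as the esophagus, read 14.55 and 14.69 in proximal, against 6.04 and 5.60 in distal stomach (8.80, SE 0.54, adjusted p = 2.06e-11). Its partner Krt13 read 14.59 and 14.69 in proximal, against 6.17 and 5.75 in distal stomach (8.68, SE 0.27, adjusted p = 7.1e-16). For both genes the proximal arrays lay close together and far above the distal ones. Krt1, a keratin of cornifying epidermis, read 13.47 and 12.67 in proximal, against 6.68 and 6.01 in distal stomach (6.73, SE 0.26, adjusted p = 1.39e-14). Krt6b, induced in stressed epithelia, differed by 6.41, and Krt78 by 6.02. Krt6a, picked after its values were seen, read 10.04 and 12.99 in proximal, against 5.79 and 6.16 in distal stomach (5.54, SE 0.56, adjusted p = 6.32e-08), with proximal replicate 2 well above replicate 1.

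The basal layer and hemidesmosome list was split. Of 15 genes tested, of 16 listed, 10 were called higher and 2 lower, with a median of 2.01. Krt5, the type II keratin of basal cells, read 14.10 and 13.99 in proximal, against 7.02 and 7.30 in distal stomach (6.88, SE 0.19, adjusted p = 8.63e-17). Its partner Krt14 read 12.84 and 12.16 in proximal, against 6.86 and 6.13 in distal stomach (6.002, SE 0.46, adjusted p = 7.99e-10). Col17a1, the hemidesmosome collagen, read 11.32 and 10.93 in proximal, against 4.85 and 5.28 in distal stomach (6.06, SE 0.30, adjusted p = 5.18e-13). Krt15 differed by 4.73. The 2 members called lower, named after their values were seen, were the integrin gene Itga6 (-0.59) and the laminin gene Lamb3 (-0.88). The count lower was 1 without distal replicate 1, without proximal replicate 1 and without proximal replicate 2.

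Desmosome genes included members on either side. Of 12 tested, of 13 listed, 9 were called higher and 2 lower. Pkp1, a plakophilin of stratified epithelia, read 14.03 and 14.18 in proximal, against 5.74 and 5.24 in distal stomach (8.61, SE 0.30, adjusted p = 1.92e-15). The 2 called lower, named after their values were seen, were Pkp2, the plakophilin of simple epithelia, at 5.87 and 5.88 in proximal, against 11.21 and 11.09 in distal stomach (-5.28, SE 0.17, adjusted p = 7.78e-16), and Dsg2, the desmoglein of simple epithelia (-1.69, adjusted p = 6.52e-10). Proximal arrays were thus high for Pkp1 and low for Pkp2. The desmogleins and desmocollins of cornifying layers were high in proximal stomach: Dsg1b at 11.75 and 11.87 in proximal, against 4.03 and 3.79 in distal stomach (7.90, SE 0.22, adjusted p = 6.74e-17), and Dsc1 with a difference of 7.22. Cdsn encodes corneodesmosin, which seals corneocytes together, and read 13.58 and 13.45 in proximal, against 4.18 and 4.08 in distal stomach (9.38, SE 0.20, adjusted p = 2.23e-18).

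Proteases, inhibitors and lipid enzymes of the squamous barrier were also higher in proximal stomach. Of 31 squamous proteases and inhibitors tested, of 38 listed, 26 were called higher and 1 lower, with a median of 5.86. The serpin gene Serpinb3a read 12.43 and 12.56 in proximal, against 3.74 and 3.92 in distal stomach (8.67, SE 0.23, adjusted p = 4.65e-17). The cystatin gene Csta1 read 14.09 and 14.23 in proximal, against 5.64 and 5.42 in distal stomach (8.63, SE 0.41, adjusted p = 2.63e-13). Spink5, the inhibitor of kallikreins in cornified epithelium, differed by 7.54, Serpinb11 by 8.54 and the membrane protease gene Tmprss11a by 7.32. The gene called lower, which lost its call without distal replicate 1 and without proximal replicate 2, was Tmprss4 (-0.998), named after its value was seen. Of 16 barrier lipid genes tested, of 19 listed, 15 were called higher and 0 lower, and 1 was called lower without distal replicate 2 and without proximal replicate 1. Alox12b, the lipoxygenase that acts on barrier ceramides, read 13.52 and 13.36 in proximal, against 4.62 and 4.80 in distal stomach (8.73, SE 0.30, adjusted p = 1.91e-15). The lipase gene Lipm differed by 8.36, Lipk by 6.76, the serine palmitoyltransferase gene Sptlc3 by 6.54 and Sdr9c7 by 6.03.

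Trp63 was higher in proximal stomach by each of its 4 probe sets. The brightest read 13.16 and 13.31 in WT proximal stomach, against 7.03 and 7.20 in WT distal stomach (6.12, SE 0.38, adjusted p = 2.58e-11). Fitted one by one, the next in brightness differed by 4.49, with an adjusted p of 1.88e-10. Another differed by 2.56, with an adjusted p of 5.04e-10. The dimmest, which did not pass the filter on low values, differed by 0.71, with an adjusted p of 0.00941. Of 20 squamous transcription factors tested, of 24 listed, 15 were called higher and 1 lower. Tfap2c, an AP-2 factor of the epidermis, read 12.94 and 13.15 in proximal, against 6.48 and 6.32 in distal stomach (6.65, SE 0.21, adjusted p = 7.1e-16). Hopx read 13.47 and 13.54 in proximal, against 7.36 and 7.39 in distal stomach (6.13, SE 0.20, adjusted p = 1.3e-15). Tfap2a differed by 5.63 and Grhl3, a grainyhead factor of barrier formation, by 5.38. Sox2, a foregut transcription factor, read 11.96 and 12.31 in proximal, against 11.004 and 11.41 in distal stomach and missed the threshold (0.93, adjusted p = 0.0698). The factor called lower was Ovol2 (-2.11). Sox2 and Ovol2 are named after their values were seen.

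On the glandular side, genes of mucous cells were lower in proximal stomach. Of 13 pit and neck mucous genes tested, of 15 listed, 12 were called lower in proximal stomach and 0 higher, with a median of -5.75. Gastrokine 1 (Gkn1), secreted by surface mucous cells, read 4.35 and 4.56 in WT proximal stomach, against 14.61 and 14.22 in WT distal stomach (-9.96, SE 0.72, adjusted p = 3.19e-10). Gkn2 read 4.996 and 4.59 in proximal, against 14.06 and 13.55 in distal stomach (-9.01, SE 0.72, adjusted p = 1.42e-09). Gkn3 differed by -6.45. Both proximal arrays were low for the gastrokines. Ctse, an aspartic protease of mucous cells, read 4.84 and 6.52 in proximal, against 13.55 and 13.49 in distal stomach (-7.84, SE 0.52, adjusted p = 6.8e-11). The trefoil factor gene Tff1 read 6.77 and 8.70 in proximal, against 14.30 and 14.11 in distal stomach (-6.47, SE 0.54, adjusted p = 3.2e-09). Proximal replicate 2 was above proximal replicate 1 for Ctse and Tff1, and both stayed below the distal arrays.

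Windows of 150 bases before the annotated start are shown likewise for Gkn1 and Gkn2, which are neighbours on chromosome 6, and for the pepsinogen gene Pgc, all 3 among the largest decreases.
Gkn1, chr6:87350916-87351065, minus strand: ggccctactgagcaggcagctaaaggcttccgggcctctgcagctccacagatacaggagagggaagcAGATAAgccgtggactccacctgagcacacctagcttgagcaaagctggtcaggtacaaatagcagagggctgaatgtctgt
Gkn2, chr6:87373215-87373364, plus strand: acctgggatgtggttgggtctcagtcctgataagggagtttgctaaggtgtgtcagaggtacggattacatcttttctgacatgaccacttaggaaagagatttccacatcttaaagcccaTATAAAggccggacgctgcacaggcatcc
Pgc, chr17:47726692-47726841, plus strand: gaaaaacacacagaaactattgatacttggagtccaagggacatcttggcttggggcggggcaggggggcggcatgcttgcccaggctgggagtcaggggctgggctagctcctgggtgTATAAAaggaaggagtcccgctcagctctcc
An AGATAA lies 82 bases before the start of Gkn1, and TATAAA lies 29 bases before that of Gkn2 and 31 before that of Pgc.

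Digestive and acid-secreting cell genes were low in proximal stomach. Pgc, which encodes pepsinogen C, read 5.40 and 5.10 in proximal, against 12.92 and 13.15 in distal stomach (-7.78, SE 0.26, adjusted p = 1.3e-15). Cblif, the gastric intrinsic factor gene, read 5.05 and 4.35 in proximal, against 13.26 and 12.35 in distal stomach (-8.10, SE 0.31, adjusted p = 8.95e-15). Of 7 chief-cell genes tested, of 8 listed, 4 were called lower and 1 higher. The others called lower were Pga5 (-5.80) and the secretory-cell factor Bhlha15 (-4.73), and the member called higher was the lysosomal protease gene Ctsl (0.58). Of 15 genes of parietal cells and acid secretion tested, of 17 listed, 13 were called lower and 1 higher. The proton pump subunit gene Atp4b read 7.70 and 7.57 in proximal, against 14.35 and 13.38 in distal stomach (-6.23, SE 0.25, adjusted p = 2.17e-14). The catalytic subunit gene Atp4a read 6.06 and 5.58 in proximal, against 12.72 and 10.03 in distal stomach (-5.55, SE 0.50, adjusted p = 8.64e-09). The distal arrays lay well apart for Atp4a, and neither overlapped the proximal arrays. Clic6 differed by -6.62, the nuclear receptor gene Esrrg by -5.42 and the water channel gene Aqp4 by -5.21. The one called higher, Car9 (1.15), a hypoxia-induced carbonic anhydrase that also stands in the hypoxia list, lost its call without distal replicate 1, without distal replicate 2 and without proximal replicate 1.

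Hormone-cell genes were mostly lower in proximal stomach: of 20 enteroendocrine genes tested, of 26 listed, 14 were called lower and 3 higher. Ghrelin (Ghrl) read 7.40 and 7.07 in proximal, against 13.21 and 11.34 in distal stomach (-5.04, SE 0.34, adjusted p = 9.6e-11). The factor Isl1, which is also expressed in gastric mesenchyme, read 7.30 and 7.58 in proximal, against 12.72 and 12.89 in distal stomach (-5.37, SE 0.34, adjusted p = 3.48e-11). Gcg differed by -4.58, the amine-synthesis enzyme gene Ddc by -3.91 and the endocrine factor gene Insm1 by -2.93. The 3 called higher, named after their values were seen, were the amine transporter gene Slc18a1 (1.24), the histidine decarboxylase gene Hdc (1.20) and Cpe (0.60). Without proximal replicate 1, 1 gene of the list was called higher. Hdc is also a mast-cell gene, and the mast-cell gene Cpa3 was higher too (1.57); its part in the Hdc value was not tested.

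General genes of simple columnar epithelium were lower in proximal stomach in 19 of 27 tested and higher in 2, with a median of -2.08. Agr2, a protein disulfide isomerase of mucous cells, read 6.18 and 7.24 in proximal, against 14.78 and 14.63 in distal stomach (-7.99, SE 0.22, adjusted p = 5.74e-17). The claudin gene Cldn18 read 5.47 and 5.74 in proximal, against 12.56 and 12.41 in distal stomach (-6.88, SE 0.28, adjusted p = 2.17e-14). Anxa10 read 6.38 and 7.68 in proximal, against 14.14 and 14.06 in distal stomach (-7.06, SE 0.48, adjusted p = 1.18e-10). Krt20 differed by -6.08 and Anxa13 by -6.02. The simple keratin genes Krt8 (-0.98), Krt18 (-3.87) and Krt19 (-2.08) were also called lower, while Krt7 was not called (-0.37, adjusted p = 0.186). The 2 called higher were claudin genes, Cldn4 (2.81) and Cldn23 (0.83). The pan-epithelial genes Cdh1 (-0.27, adjusted p = 0.107) and Epcam (-0.77, adjusted p = 3.97e-05) differed by less than 1, and only Epcam was called. These keratin, claudin and pan-epithelial genes other than Cldn18, Krt19 and Krt20 were chosen after their values were seen.

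Transcription factors of the endoderm had the same direction. Of 22 tested, of 26 listed, 19 were called lower in proximal stomach and 0 higher, with a median of -1.96. Hnf4a, a nuclear receptor of columnar endoderm, read 6.48 and 6.43 in proximal, against 13.34 and 13.12 in distal stomach (-6.78, SE 0.24, adjusted p = 3.57e-15). Gata4, which marks the glandular stomach, read 6.75 and 7.20 in proximal, against 12.23 and 12.13 in distal stomach (-5.20, SE 0.25, adjusted p = 4.28e-13). Foxa3 differed by -5.83 and Foxa2 by -4.06. Pdx1, a factor of antrum, duodenum and pancreas, read 5.66 and 4.57 in proximal, against 8.73 and 8.84 in distal stomach (-3.67, SE 0.39, adjusted p = 1.08e-07), and lost its call when no filter on low values was used, a fit that represents the gene by another probe set. Both proximal arrays were low and both distal arrays high for each of these factors.

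Intestinal genes gave a mixed picture. Of 28 tested, of 30 listed, 13 were called lower and 3 higher in proximal stomach. Olfm4 read 5.27 and 5.95 in proximal, against 12.68 and 12.36 in distal stomach (-6.92, SE 0.33, adjusted p = 3.59e-13). The fatty-acid carrier gene Fabp1 read 5.25 and 5.47 in proximal, against 12.01 and 11.24 in distal stomach (-6.26, SE 0.72, adjusted p = 3.88e-07). The microvillus gene Vil1 differed by -5.45 and Apoa1 by -4.89. The 3 called higher in proximal stomach were the peptide transporter gene Slc15a1, at 11.81 and 11.74 in proximal, against 7.60 and 6.38 in distal stomach (4.78, SE 0.44, adjusted p = 1.31e-08), the glucose transporter gene Slc5a1, at 10.65 and 10.45 in proximal, against 6.33 and 6.25 in distal stomach (4.26, SE 0.27, adjusted p = 3.23e-11), and the retinol carrier gene Rbp2 (1.29). Slc5a1 and Rbp2 are named after their values were seen. The intestinal factor Cdx2 read 5.33 and 5.58 in proximal, against 6.54 and 6.01 in distal stomach and was called lower (-0.82, adjusted p = 0.0119). The intestinal cadherin gene Cdh17 read 5.28 and 4.88 in proximal, against 4.35 and 4.95 in distal stomach and was not called (adjusted p = 0.225). Both were looked up after the values were seen.

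**Figure D2:**
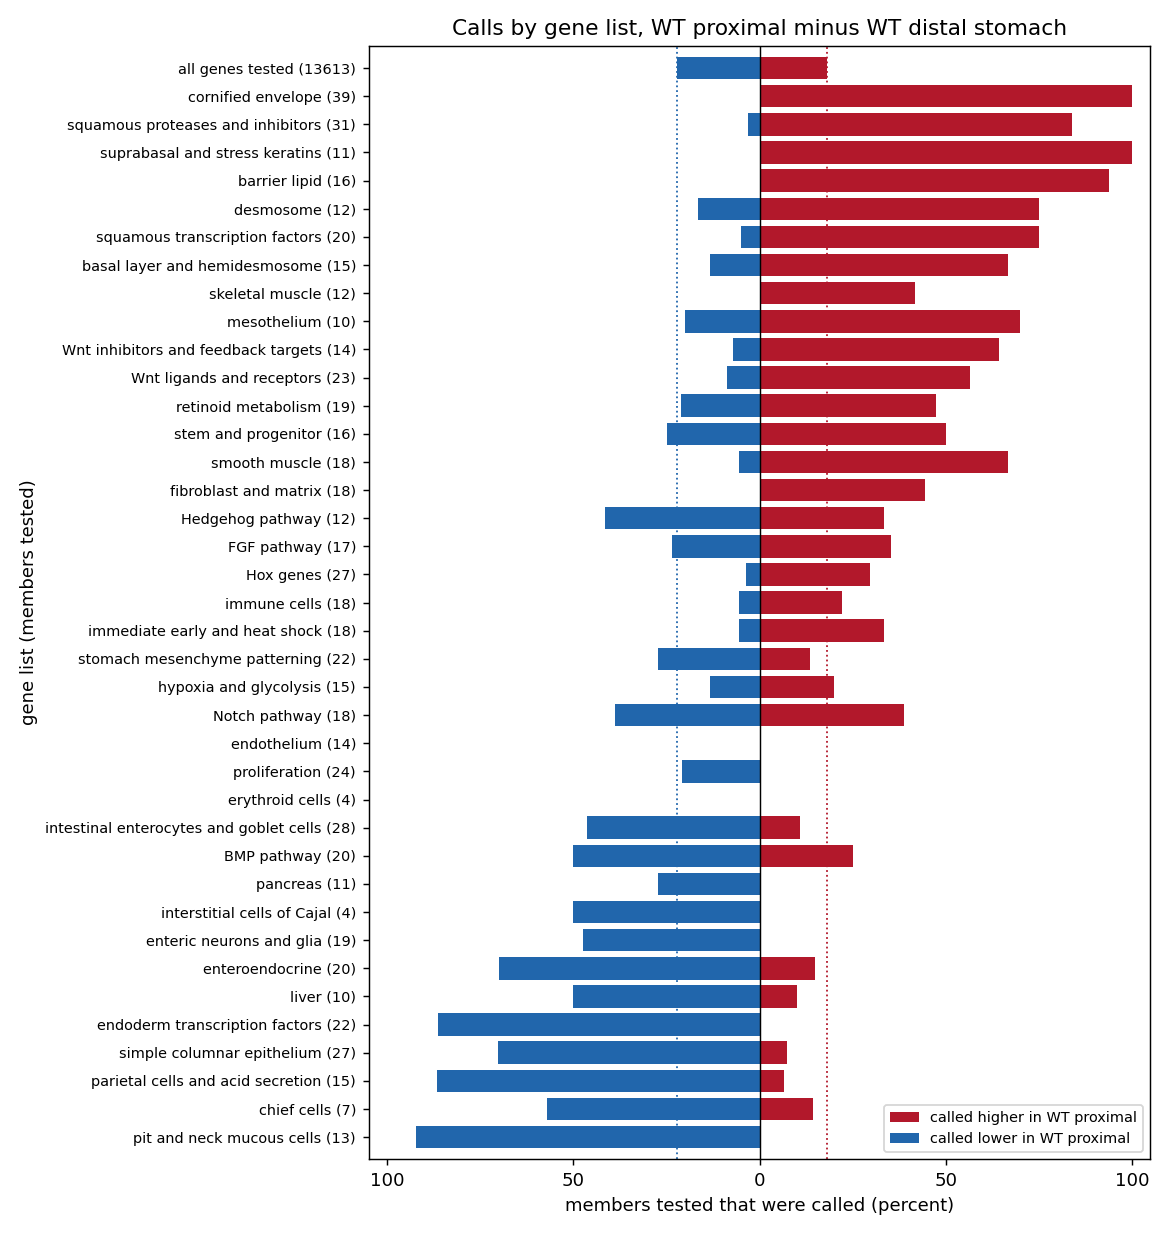
Share of the tested members of each gene list shown that were called higher (red, right) or lower (blue, left) in WT proximal than in WT distal stomach, in percent, ordered by the list's median difference, with the number tested in brackets and all genes in the top bar. The sex-linked list is left out, as are the airway and spleen stroma lists, which had few members tested. Dotted lines mark the shares over all genes (18.2% higher, 22.3% lower); the squamous lists stand at the top and the gastric gland lists at the bottom.

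A few Hox genes, which pattern the body axis and are expressed in gut mesenchyme, separated the regions sharply. Of 27 tested, of 39 listed, 8 were called higher in proximal stomach and 1 lower, with a median of 0.25. Hoxc8 read 12.37 and 12.24 in WT proximal stomach, against 5.65 and 5.23 in WT distal stomach (6.87, SE 0.54, adjusted p = 1.22e-09). Hoxc5 read 10.80 and 10.83 in proximal, against 6.78 and 6.98 in distal stomach (3.94, SE 0.18, adjusted p = 1.35e-13). Hoxa9 read 8.41 and 8.30 in proximal, against 4.02 and 3.83 in distal stomach (4.43, SE 0.27, adjusted p = 2.43e-11). Proximal arrays were the high ones for these 3. Hoxb6 differed by 2.03, and Hoxd3 was the one gene called lower, at 8.17 and 7.62 in proximal, against 9.40 and 10.22 in distal stomach (-1.91, SE 0.32, adjusted p = 4.65e-05). Neighbours in the clusters did not all follow: Hoxc9 read 6.64 and 6.47 in proximal, against 6.24 and 6.68 in distal stomach and was not called (adjusted p = 0.816), nor was Hoxa10, at 3.73 and 4.58 in proximal, against 4.41 and 3.91 in distal stomach (adjusted p = 0.988). Hoxc9 and Hoxa10 were picked after their values were seen.

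**Figure D3:**
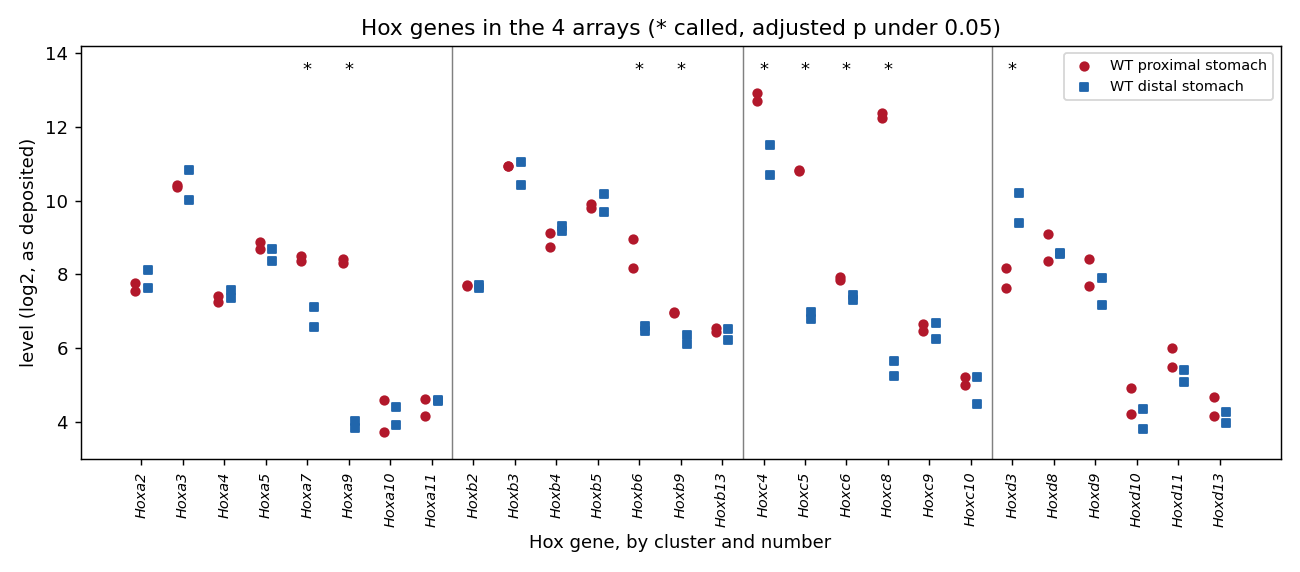
Log2 levels of the 27 Hox genes tested, with 2 red circles for the WT proximal arrays and 2 blue squares for the WT distal arrays, ordered by cluster and number, and stars for the 9 genes called. The points of Hoxc8, Hoxa9 and Hoxc5 stand farthest apart.

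Other patterning genes of stomach mesenchyme were called in each direction. Of 22 tested, of 30 listed, 3 were called higher and 6 lower, where 18.2% and 22.3% of all genes tested were. The GATA factor gene Gata3 read 9.67 and 9.98 in proximal, against 6.16 and 5.89 in distal stomach (3.80, SE 0.35, adjusted p = 1.23e-08). Osr1 differed by 1.42. The other member called higher, Meis1 (0.87), is named after its value was seen. Isl1, described above, Sox9 (-2.52) and Foxf2 (-1.17) were among those called lower. Barx1, a homeobox gene of stomach mesenchyme, read 10.69 and 10.09 in proximal, against 10.46 and 10.77 in distal stomach and was not called (adjusted p = 0.511), and was looked up after the values were seen. In p63 KO stomachs Gata3 differed by -0.15 between the regions and was not called, while Osr1 (1.24) and Meis1 (0.9995) were called higher. Which cells of the tissue gave the RNA of these genes was not tested.

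Signalling pathways held genes called in each direction. Among 12 Hedgehog genes tested, of 14 listed, the ligand genes Ihh and Shh were lower in proximal stomach. Ihh read 5.71 and 6.12 in proximal, against 11.54 and 11.33 in distal stomach (-5.52, SE 0.24, adjusted p = 5.39e-14). Shh read 7.66 and 9.40 in proximal, against 11.27 and 11.95 in distal stomach (-3.08, SE 0.46, adjusted p = 1.31e-05). The pathway's targets Gli1 (-1.27) and Hhip (-1.12) were also called lower, and the co-receptor gene Boc was called higher (1.11). In all 5 were called lower and 4 higher, including, named after their values were seen, the receptor gene Ptch1 (-0.57) among the lower and Gli2 (0.90), Sufu (0.52) and Cdon (0.51) among the higher. The count higher was 1 without distal replicate 1, 1 without proximal replicate 1 and 2 without proximal replicate 2.

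Wnt ligand and receptor genes had 13 called higher and 2 lower in proximal stomach of 23 tested and 32 listed. Wnt4 read 13.16 and 12.98 in proximal, against 10.06 and 10.03 in distal stomach (3.02, SE 0.19, adjusted p = 2.9e-11). Wnt7b read 10.13 and 9.57 in proximal, against 5.90 and 6.22 in distal stomach (3.79, SE 0.26, adjusted p = 1.3e-10). Wnt10a differed by 3.95. The receptor genes Fzd10 and Fzd5 took opposite sides: Fzd10 read 9.21 and 9.39 in proximal, against 5.93 and 5.68 in distal stomach (3.50, adjusted p = 6.52e-10). Fzd5 read 9.71 and 9.38 in proximal, against 12.25 and 12.43 in distal stomach (-2.79, adjusted p = 2.26e-11). The other receptor gene called lower was Fzd4 (-1.24), named after its value was seen. Of 14 Wnt inhibitors and feedback targets tested, of 18 listed, 9 were called higher, led by Apcdd1 (2.57), Lef1 (2.20) and Nkd1 (1.70) and including the feedback target Axin2 (1.52), and 1 lower, Sfrp4 (-2.06). The receptor gene Lgr6 was higher in proximal stomach (9.26 and 9.54 in proximal, against 4.9995 and 4.88 in distal stomach; 4.46, SE 0.24, adjusted p = 1.7e-12) and its relative Lgr5, a marker of gland-base stem cells, was lower (6.08 and 6.75 in proximal, against 8.93 and 8.01 in distal stomach; -2.06, SE 0.40, adjusted p = 0.000238). In the stem and progenitor list as a whole, 8 of 16 were called higher and 4 lower. Besides Lgr5 and Olfm4, those lower were Prom1 (-1.85) and Bmi1 (-0.40), named after their values were seen.

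BMP pathway genes were called lower in 10 and higher in 5 of 20 tested, of 23 listed. Bmp2 read 9.58 and 9.69 in proximal, against 11.42 and 11.16 in distal stomach (-1.65, SE 0.23, adjusted p = 5.36e-06). The feedback inhibitor gene Smad6 differed by -1.47. Bmp7 (1.57) and Msx2 (2.07) were called higher. The other members called higher, named after their values were seen, were Bmp1 (0.90), Bmp6 (0.83) and Bambi (0.89). The count higher was 3 without distal replicate 1 and 3 without proximal replicate 1. Of 17 FGF genes tested, of 22 listed, 6 were called higher and 4 lower. Fgf7, a mesenchymal ligand for epithelial receptors, read 9.14 and 9.18 in proximal, against 7.02 and 6.50 in distal stomach (2.40, SE 0.27, adjusted p = 2.25e-07), while Fgf9 (-1.57) and the FGF target gene Etv5 (-1.73) were lower, as were Fgf13 (-0.98) and Spry2 (-0.67), both named after their values were seen. Of 18 Notch genes tested, of 19 listed, 7 were called higher, among them Jag2 (2.01), Nrarp (1.63), Notch3 (1.20) and Notch1 (0.88), and 7 lower, among them Hey2 (-1.87). The count lower was 4 without distal replicate 1 and 4 without proximal replicate 2.

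Retinoid genes were called higher in 9 and lower in 4 of 19 tested, of 22 listed. Crabp2, a retinoic acid carrier of squamous epithelia, read 13.17 and 13.23 in proximal, against 8.03 and 8.47 in distal stomach (4.95, SE 0.30, adjusted p = 1.95e-11). The 2 genes called among those for retinoic acid hydroxylases were higher in proximal stomach, Cyp26b1 at 10.19 and 9.67 in proximal, against 6.57 and 6.25 in distal stomach (3.52, SE 0.30, adjusted p = 3.48e-09) and Cyp26a1 with a difference of 2.82. The receptor gene Rarg differed by 1.82. Adh7, an alcohol dehydrogenase that oxidises retinol, read 6.44 and 5.34 in proximal, against 8.40 and 7.04 in distal stomach (-1.83, SE 0.38, adjusted p = 0.000498). The others called lower, named after their values were seen, were Crabp1 (-1.64), Rdh10 (-0.56) and Rara (-0.59). Without proximal replicate 1, 6 genes of the list were called higher and 1 lower.

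Genes of the muscle wall and stroma differed by small amounts, and the counts of calls moved with single arrays. Smooth muscle genes were called higher in 12 and lower in 1 of 18 tested, with a median of 0.43, and the count higher was 2 without proximal replicate 1, 4 without distal replicate 1 and 8 without distal replicate 2. Lmod1 read 10.99 and 10.34 in proximal, against 9.28 and 9.46 in distal stomach (1.30, SE 0.26, adjusted p = 0.000394), and Pcp4, the gene called lower, differed by -1.58 and lost its call without proximal replicate 2. Fibroblast and matrix genes were called higher in 8 of 18, with a median of 0.38, and in 2 without proximal replicate 1 and 4 without distal replicate 1. Thy1 differed by 1.51 and Dpt by 1.17, which lost its call with the actin covariate.

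Some nerve and pacemaker genes were lower in proximal stomach. Of 19 enteric neuron and glia genes tested, of 23 listed, 9 were called lower and 0 higher, with a median of -0.99; the count lower was 4 without distal replicate 2 and 4 without proximal replicate 2. The neuropeptide gene Gal read 7.14 and 6.996 in proximal, against 8.81 and 8.91 in distal stomach (-1.79, SE 0.19, adjusted p = 1.02e-07). The neuronal gene Elavl4 differed by -1.51. Kit, the receptor gene of interstitial cells of Cajal, read 9.63 and 9.52 in proximal, against 11.30 and 11.50 in distal stomach (-1.83, SE 0.20, adjusted p = 1.98e-07). Ano1, their chloride channel gene, read 12.16 and 12.05 in proximal, against 12.89 and 12.97 in distal stomach (-0.82, SE 0.09, adjusted p = 2.28e-07). Of 4 genes of that list tested, 2 were called lower. Mesothelial genes were called higher in 7 and lower in 2 of 10, the 2 being Krt19, described above, and Upk3b (-0.51), named after its value was seen. The count lower was 1 without distal replicate 1 and 1 without proximal replicate 2. Muc16 read 9.39 and 9.24 in proximal, against 7.63 and 7.05 in distal stomach (1.98, SE 0.28, adjusted p = 5.54e-06). Wt1 differed by 1.35.

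Genes of cell types outside the 2 linings were followed as well. Where they moved with region, their part in the results above was not tested. Of 12 skeletal muscle genes that passed the filter, of 20 listed, 5 were called higher in proximal stomach, and their mean was 8.95 and 8.18 in WT proximal stomach, against 7.26 and 7.12 in WT distal stomach. The myogenic factor gene Myog read 9.08 and 7.88 in proximal, against 4.06 and 4.24 in distal stomach (4.33, SE 0.71, adjusted p = 4.4e-05). Myod1 read 8.72 and 8.64 in proximal, against 6.84 and 6.99 in distal stomach (1.76, SE 0.26, adjusted p = 1.21e-05). The count was 2 without proximal replicate 1, 3 without either distal array and 8 without proximal replicate 2. Of 9 airway and ciliated genes listed, 3 passed the filter, 1 called higher and 2 lower, with list means of 9.04 and 8.52 in WT proximal stomach, against 7.33 and 7.27 in WT distal stomach. The genes called lower were Dnaic1 (-1.41) and Tppp3 (-1.03), and 1 was called lower without proximal replicate 2. The airway secretory gene Scgb1a1 read 11.06 and 10.61 in proximal, against 3.98 and 3.93 in distal stomach (6.88, SE 0.25, adjusted p = 4.08e-15). Among immune genes 4 of 18 were called higher and 1 lower, Cd14 (-2.02), and 7 higher without proximal replicate 2. Their means were 9.67 and 9.03 in WT proximal stomach, against 8.91 and 8.93 in WT distal stomach. Those called higher were Cd68 (1.04), the mast-cell genes Cpa3 (1.57) and Mcpt4 (1.73), of which Mcpt4 lost its call without proximal replicate 1, and S100a9, a calprotectin subunit gene of neutrophils and of squamous cells, at 13.32 and 12.92 in proximal, against 9.64 and 10.15 in distal stomach (3.22, SE 0.76, adjusted p = 0.00162), which lost its call with the actin covariate.

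Markers of liver and pancreas, organs that adjoin the stomach, were followed likewise, and their part in the results was not tested. Of 10 liver genes tested, of 16 listed, 5 were called lower and 1 higher, and 3 lower without distal replicate 2, without proximal replicate 1 and without proximal replicate 2. The means over the liver list were 6.60 and 6.53 in WT proximal stomach, against 7.27 and 8.88 in WT distal stomach. Albumin (Alb) read 7.91 and 6.90 in proximal, against 6.23 and 10.69 in distal stomach, with distal replicate 2 far above the other arrays, and was not called (adjusted p = 0.452); it was looked up after the values were seen. Ttr, the transthyretin gene, which the fetal gut also expresses, read 5.76 and 7.57 in proximal, against 14.07 and 13.81 in distal stomach (-7.28, SE 0.34, adjusted p = 2.45e-13). Afp read 5.58 and 6.02 in proximal, against 7.64 and 9.82 in distal stomach (-2.93, SE 0.62, adjusted p = 0.00065), with distal replicate 2 above distal replicate 1. Serpina1b was the one called higher, at 10.77 and 9.68 in proximal, against 6.16 and 6.82 in distal stomach (3.74, SE 0.35, adjusted p = 1.72e-08). Of 11 pancreas genes tested, of 20 listed, 3 were called lower: Gcg, described above, Cela1 (-3.76) and Iapp (-1.39), of which Iapp lost its call without distal replicate 1. The means over the pancreas list were 6.37 and 6.54 in WT proximal stomach, against 7.64 and 7.23 in WT distal stomach. No endothelial gene (0 of 14), erythroid gene (0 of 4), spleen stroma gene (0 of 2) or sex-linked gene (0 of 4) was called by limma at an adjusted p under 0.05.

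Of 24 proliferation genes tested, 5 were called lower in proximal stomach and 0 higher, with a median of -0.21, and the count lower fell when single arrays were left out. Over all genes tested, 22.3% were called lower and 18.2% higher, shares that also stand beside the other lists of this paragraph. The count lower is therefore not read as a shift of the proliferation list. Ccnd1 read 11.71 and 11.70 in proximal, against 12.11 and 12.36 in distal stomach (-0.53, SE 0.12, adjusted p = 0.00154). Among immediate early and heat shock genes, which also respond to handling, 6 of 18 were called higher and 1 lower, Jun (-0.56), named after its value was seen and not called without any 1 of the 4 arrays. Hspa1a read 8.16 and 7.76 in proximal, against 4.43 and 4.26 in distal stomach (3.62, SE 0.36, adjusted p = 4.98e-08). Hspa1b read 12.65 and 12.73 in proximal, against 9.42 and 9.67 in distal stomach (3.15, SE 0.28, adjusted p = 7.31e-09). Ier3 differed by 2.09 and Dusp1 by 1.84. Fos (-0.06, adjusted p = 0.929) and Atf3 (-0.15, adjusted p = 0.891), looked up after the values were seen, were not called. The part of these genes in the other results was not tested. Of 15 hypoxia and glycolysis genes, 3 were called higher and 2 lower, among them Ndrg1 (-1.25); without proximal replicate 1 the count higher was 0, and without either distal array it was 1. The count lower was 1 without distal replicate 1, 1 without distal replicate 2 and 1 without proximal replicate 2.

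The wild-type tissues beside the stomach placed the 30 genes with the largest differences. These comparisons share the stomach arrays with the one above, so their values are given side by side only. The 30 genes were chosen for high values on those arrays, so the counts of calls below were favoured by the choice and are no separate support. All 15 of the largest increases were called higher in WT proximal stomach than in WT bladder, where 22.4% of all genes were. Krt4 was the one with a high level in bladder, a stratified urothelium, at 14.62 ± 0.09 in WT proximal stomach, 5.82 ± 0.31 in WT distal stomach, 11.10 ± 0.46 in WT bladder, 6.08 ± 0.07 in WT small intestine and 5.38 ± 0.01 in WT large intestine (mean ± SD, n = 2 each). Trp63 was at 13.24 ± 0.11 in WT proximal stomach, 7.12 ± 0.12 in WT distal stomach and 12.41 ± 0.18 in WT bladder. Of the 15 largest decreases, 10 were called higher in WT distal stomach than in WT small intestine, where 19.5% of all genes were. Gkn1, Gkn2, Cblif, Pgc, Anxa10 and Cldn18 had means under 8 in the other 4 tissues. Gkn1 was at 4.46 ± 0.14 in WT proximal stomach, 14.41 ± 0.28 in WT distal stomach, 4.51 ± 0.04 in WT bladder, 5.68 ± 1.27 in WT small intestine and 4.48 ± 0.08 in WT large intestine. Agr2, Dmbt1, Lypd8 and Ttr were high in the intestine too: Dmbt1 was at 5.08 ± 0.48 in WT proximal stomach, 13.45 ± 0.78 in WT distal stomach, 13.50 ± 0.42 in WT small intestine and 12.72 ± 0.76 in WT large intestine.

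**Figure D4:**
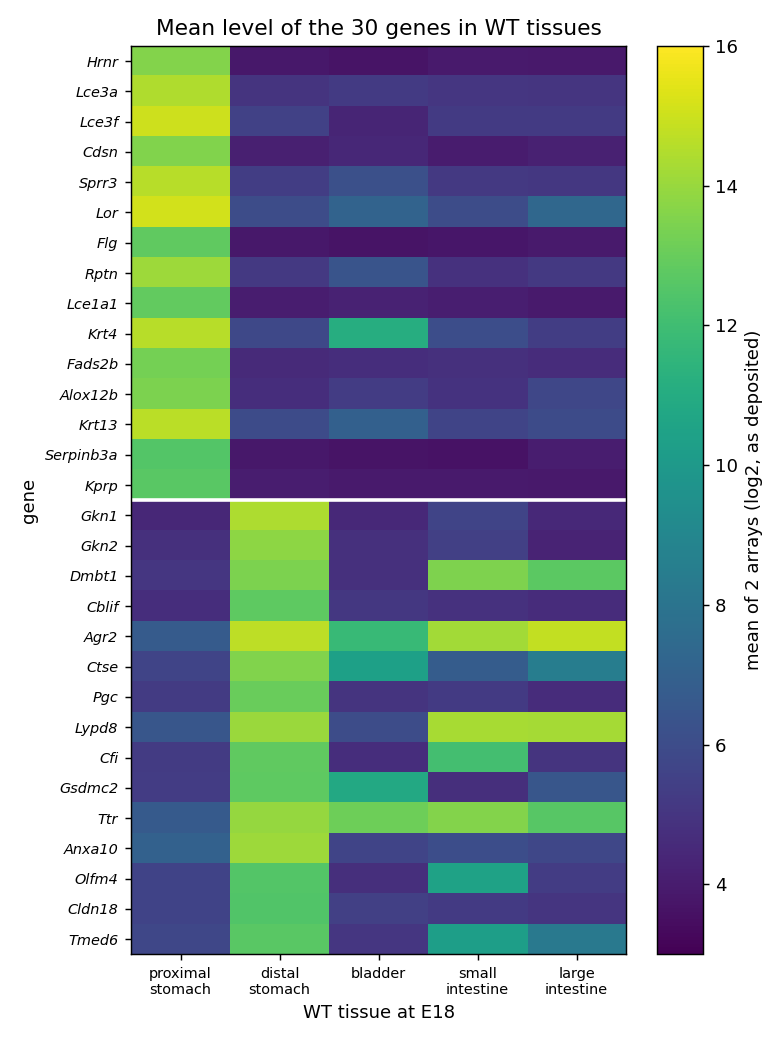
Mean log2 level (colour, 2 arrays per tissue) of the 15 largest increases (above the white line) and the 15 largest decreases (below it) in WT proximal stomach, distal stomach, bladder, small intestine and large intestine at E18. The upper genes are bright in proximal stomach, with Krt4 also at 11.10 in bladder, and among the lower genes Gkn1 and Pgc are bright in distal stomach while Agr2 and Lypd8 are bright in both intestines.

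The same regional comparison was made in p63 KO stomachs, on arrays that the wild-type comparison does not use. The place of the Trp63 probe sets relative to the deleted part is not given in the sources used here, so their level does not check the labels: the brightest read 13.67 and 13.78 in p63 KO proximal stomach, against 7.38 and 8.73 in p63 KO distal stomach. In p63 KO stomachs 2072 of 13613 genes (15.2%) were called higher and 2383 (17.5%) lower in proximal than in distal stomach. Of the 560 genes called and at least 4-fold higher in WT proximal stomach, 194 passed the same rule in p63 KO stomachs, 34.6% of the wild-type list and 55.4% of the 350 in the p63 KO list; with no fold required, 328 (58.6%) were called higher. Of the 464 at least 4-fold lower, 201 did so, 43.3% of the wild-type list and 82.0% of the 245 in the p63 KO list; with no fold required, 353 (76.1%) were called lower. The difference between the regional differences, WT minus p63 KO, was called for 2618 genes (19.2%), 1215 of them positive and 1403 negative. With the actin covariate, which moved with region, it was called for 1244.

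Most cornified genes had a larger regional difference in WT: the difference between genotypes was called positive for 32 of the 39 tested and negative for 1. Over all 13613 genes it was called positive for 1215 and negative for 1403. A gene could pass the filter on low values through the WT proximal arrays alone, which favoured positive calls among the members tested. In p63 KO stomachs 14 of the 39 were called higher in proximal stomach, with a median difference of 0.25, and a missing call does not show that a gene had no difference there. Sprr3 read 13.87 and 14.08 in p63 KO proximal stomach, against 5.68 and 5.43 in p63 KO distal stomach. Rptn read 12.39 and 13.23 in p63 KO proximal stomach, against 4.89 and 4.94 in p63 KO distal stomach. The keratin gene Krt13 read 14.57 and 14.64 in p63 KO proximal stomach, against 6.60 and 7.74 in p63 KO distal stomach. For these 3 genes the p63 KO proximal arrays were high and the p63 KO distal arrays low. Flg read 4.08 and 3.82 in p63 KO proximal stomach, against 3.57 and 3.77 in p63 KO distal stomach. Hrnr read 4.48 and 3.77 in p63 KO proximal stomach, against 3.82 and 3.76 in p63 KO distal stomach. Both genes were low on all 4 p63 KO arrays. The regional difference of Flg was larger in WT by 8.68 (SE 0.29, adjusted p = 1.58e-14), and that of Hrnr by 9.42 (SE 0.79, adjusted p = 1.3e-08). For Sprr3 and Krt4 the difference between genotypes was 0.81 (SE 0.57, adjusted p = 0.384) and 1.05 (SE 0.76, adjusted p = 0.399), and neither was called. Krt5, the basal keratin gene, read 8.22 and 8.27 in p63 KO proximal stomach, against 7.13 and 7.18 in p63 KO distal stomach (1.09, adjusted p = 0.000146), and its regional difference was larger in WT by 5.80 (SE 0.27, adjusted p = 1.39e-12).

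Hox and gastric genes had regional differences in p63 KO stomachs as well. Of the 27 Hox genes 7 were called higher and 2 lower there, and no difference between genotypes was called for any of them (0 of 27 by limma at an adjusted p under 0.05, 1 of 27 at an unadjusted p under 0.05). Hoxc8 read 11.45 and 11.57 in p63 KO proximal stomach, against 6.19 and 6.88 in p63 KO distal stomach. Hoxc5 read 11.11 and 11.22 in p63 KO proximal stomach, against 6.96 and 6.83 in p63 KO distal stomach. All 15 of the largest decreases were called lower in p63 KO proximal stomach as well, and 5 had a called difference between genotypes. Of the 15 largest increases, 7 were called higher there, and 11 had a called difference between genotypes. Both sets were chosen by the WT regional difference, which is a part of the difference between genotypes. The counts of 5 and 11 were therefore favoured by the choice and are no separate support. The difference between genotypes was called negative for 9 of 13 pit and neck mucous genes, for 7 of 15 parietal genes and for 15 of 27 genes of simple columnar epithelium, against 1403 of all 13613 genes. The median regional difference of the columnar genes was -0.06 in p63 KO stomachs. Gkn1 read 4.51 and 8.53 in p63 KO proximal stomach, against 13.96 and 13.64 in p63 KO distal stomach. Agr2 read 13.78 and 13.67 in p63 KO proximal stomach, against 14.58 and 14.52 in p63 KO distal stomach. For Agr2 the p63 KO proximal arrays were nearly as high as the distal ones, and the difference between genotypes was -7.17 (SE 0.30, adjusted p = 3.41e-13). Among 22 endoderm factors, 12 were called lower and 1 higher in p63 KO proximal stomach, and the difference between genotypes was called for 5.

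**Figure D5:**
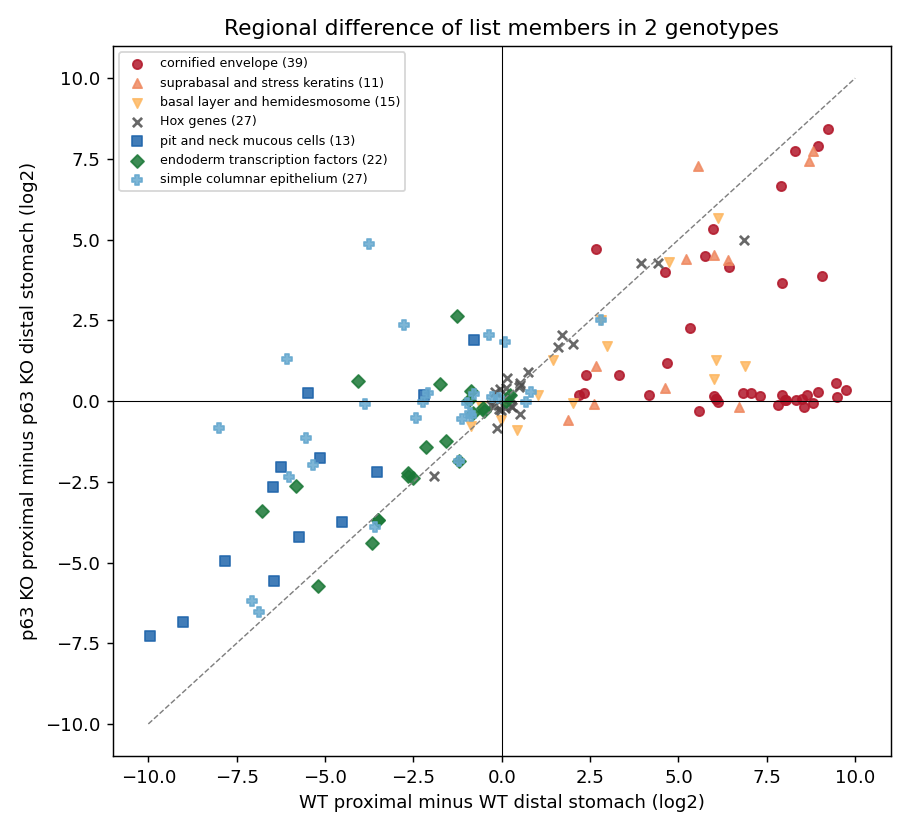
Regional difference (proximal minus distal, log2) of each tested member of 7 gene lists in WT stomachs (horizontal axis) and in p63 KO stomachs (vertical axis), with the dashed line where both are equal. Many cornified envelope genes lie at the right near 0 on the vertical axis (median 0.25), while Hox genes lie along the dashed line.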

How the data were processed

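RNA extracted with Trizol was labelled with biotin by a 3' IVT kit and hybridised to Affymetrix mouse 430 2.0 arrays, per the labels' protocols. The authors deposited log2 values for 28 arrays; per the submitters' processing notes, Affymetrix Expression Console and Partek were used, and no source used here gives the normalization steps. Values were used as deposited. Probe sets (45037 without controls) were named from the platform annotation, 34945 having 1 symbol, and 28866 lay above their array's median on at least 2 of the 28 arrays. Each of 13613 genes was read by its brightest probe set. limma 3.58.1 (R 4.3.3) was fitted with a mean for each of 14 groups and eBayes with trend, leaving 14 residual and 6.19 prior degrees of freedom, with Benjamini-Hochberg adjustment. An exact permutation test of 2 against 2 could not go below p = 0.333. The fit was tested on simulated data with known changes. Members and gene lists were chosen with earlier results of these data known. Named genes were Trp63, the 15 largest changes each way (passing over sex-linked genes and symbols such as Rik or Gm), up to 5 called members per list with the largest change, or the brightest 2 where fewer than 2 were called, and the 5 largest differences between genotypes each way; others are marked as named after their values were seen. Alternatives covered centring, quantile normalization, filters, probe set choice, arrays fitted, variance model, threshold, replicate block, actin covariate and leaving out each array.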

Additional observations from a re-analysis of the deposited data

Results flagged for a closer look

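The regional difference, proximal minus distal, was compared between genotypes as WT minus p63 KO, and 2618 of 13613 genes (19.2%) passed limma's test of that difference at an adjusted p under 0.05, and 1244 with the actin covariate. Values in brackets are this difference on the log2 scale, positive where proximal stands higher above distal in WT. Among the genes of the cornified layer it was positive for Hrnr (9.42), Lce3a (9.37), Cdsn (9.15), Lce3f (8.91), Lce1a1 (8.86), Flg (8.68), Kprp (8.40) and Lor (5.20). The serpin gene Serpinb3a (8.74) and the barrier lipoxygenase gene Alox12b (2.94) were positive as well, as was the keratin gene Krt13 (1.25). Hrnr and Lce1a1 were low on both p63 KO proximal arrays, at 4.48 and 3.77 for Hrnr and 3.66 and 4.35 for Lce1a1. The Krt13 value lost its call under 11 of the alternatives, 6 of them with 1 of the 8 stomach arrays left out.

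Among genes with full names called in the WT comparison, the difference was most negative for Spink4 (-8.64), a goblet-cell inhibitor gene, Krt20 (-7.40), Agr2 (-7.17), the membrane mucin gene Muc4 (-6.91) and Adh7 (-6.71). These genes were picked for that value, so its size is no separate support. Spink4, Krt20 and Agr2 stand in the list of simple columnar epithelium. Spink4 read 13.84 and 13.90 in p63 KO proximal stomach, against 8.82 and 9.15 in p63 KO distal stomach, and 6.61 and 6.02 in WT proximal stomach, against 10.998 and 9.15 in WT distal stomach. Muc4 read 11.18 and 11.91 in p63 KO proximal stomach, against 7.86 and 7.85 in p63 KO distal stomach, and 4.87 and 5.18 in WT proximal stomach, against 8.42 and 8.07 in WT distal stomach. The p63 KO proximal arrays were the high ones for both genes. It was also negative, by less, for Ctse (-2.89), Cfi (-2.46), Lypd8 (-1.97) and Tmed6 (-1.56), which were lower in proximal stomach in both genotypes. Of these, Ctse, Lypd8 and Tmed6 lost the call under the actin covariate, Ctse also without WT proximal replicate 1, and Lypd8 without any 1 of 4 of the stomach arrays.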

How the results depend on the processing

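Of 194 genes named by the rule, 161 kept their direction and call in the WT regional comparison under every alternative in which they were tested. The stricter filter, at the 75th percentile, tested only 164 of the 194. Over 3462 such values, 3315 kept both, 139 lost or gained a call and 8 reversed. The 8 were values of uncalled genes with 1 array left out: Alas2 (0.48 without WT distal replicate 2, 0.10 without WT proximal replicate 1; lowest over the 4 arrays -0.67), Slc4a1 (0.48 and 0.08; lowest -0.98), Xist (2.85 and 3.16; lowest -4.16) and Eif2s3y (-3.64 and -3.40; highest 4.17), in the same order of arrays. The difference between genotypes reversed for Gsdmc2 (0.03 without WT proximal replicate 1, 0.68 without p63 KO proximal replicate 2, lowest -1.25) and Cldn18 (0.12 without p63 KO proximal replicate 2, lowest -0.81), and neither was called. With every probe set tested on its own, over 28866 tests, 9962 were called in the WT comparison, 7775 in the p63 KO comparison, 4248 for the difference between genotypes, 12143 against bladder and 9543 against small intestine. The difference between genotypes was called for 1692 genes at an adjusted p under 0.01 and for 1244 with the actin covariate, which also left 4005 against bladder. Leaving out 1 array gave 4420 to 4935 calls in the WT comparison, 2767 to 3748 in the p63 KO comparison (lowest without p63 KO proximal replicate 2) and 3380 to 4792 against small intestine (lowest without WT small intestine replicate 1). Fewer arrays enter such fits; other causes were not tested. The share of calls that were higher in WT proximal stomach was 44.9%, and 40.7% without WT proximal replicate 1 and 50.9% without WT proximal replicate 2. With the replicate number as a block, 5507 genes were called, of which 5431 were among the 5504. Same-numbered WT proximal and distal arrays had deviations correlated at 0.27, and p63 KO ones at 0.013. Over all 91 pairs of groups 26 exceeded 0.1, but many pairs join different genotypes or stages, so that count cannot decide on pairing. Same-numbered WT stomach arrays also shared their Eif2s3y and Xist pattern. On replicate 2 of both p63 KO stomach regions both genes were low. The numbers were not taken to pair the samples, and whether they do is not known. Fitting only the 4 arrays gave 3872 calls. Having 2 arrays a group limits the precision, and levels near the low end of the scale have no detection call.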

Other observations

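Some genes with large regional differences lay side by side, out of 560 called and at least 4-fold higher and 464 at least 4-fold lower. How many runs would arise without clustering was not worked out. In the order of 13586 tested genes that RefSeq places on build GRCm38.p6, 18 runs of at least 3 neighbours were called and at least 4-fold higher in WT proximal than in WT distal stomach, and 6 such runs were lower. The longest ran over 20 genes on chromosome 3 from Lce1a1 to Tchh, with differences of 2.67 to 9.75, and held the late cornified envelope genes with Flg, Hrnr and Rptn. A second run of 12 genes on the same chromosome, from S100a9 to Ivl, held Lor and the small proline-rich genes (2.19 to 9.23). Others were 8 kallikrein genes on chromosome 7 from Klk13 to Klk5 (3.73 to 7.18), 6 keratin genes on chromosome 15 from Krt6b to Krt4 (2.62 to 8.80), 6 serpin genes on chromosome 1 from Serpinb5 to Serpinb8 (3.29 to 8.67) and 5 genes of the interleukin 1 family on chromosome 2 from Il1f8 to Il1rn (4.15 to 7.80). The runs that were lower in proximal stomach held 3 genes each, among them Gkn1 to Gkn3 on chromosome 6 (-9.96 to -6.45) and the trefoil factor genes Tff3 to Tff1 on chromosome 17 (-6.47 to -2.67). Neighbours of a family can share sequence, and probe sets were not checked for it.

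The 2 WT proximal arrays differed for some genes that were high in WT distal stomach. Mal, a gene of apical transport, read 8.04 and 12.90 in WT proximal stomach, against 13.24 and 13.33 in WT distal stomach. The mucin glycosyltransferase gene Gcnt3 read 5.20 and 8.95 in WT proximal stomach, against 13.23 and 13.24 in WT distal stomach. Cym, the chymosin gene, read 8.80 and 11.62 in WT proximal stomach, against 14.57 and 14.69 in WT distal stomach. Proximal replicate 2 was the higher proximal array for all 3, while Gkn1 was low on both (4.35 and 4.56). These genes were picked for this gap after their values were seen.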
